A study of Rattus norvegicus with 6 samples.

Results

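6 genes were followed here in rBMSCs, primary mesenchymal stem cells taken from the bone marrow of Lewis rats, after 4 days in 3D Nichoids or on 2D Nichoids. They were chosen by identifier from the 32883 Ensembl genes of the count tables, as 3 genes known to be switched on by NRF2 and 3 genes of the endoplasmic reticulum (ER) stress response. The NRF2 targets were Hmox1 (ENSRNOG00000014117), Nqo1 (ENSRNOG00000012772) and Gclc (ENSRNOG00000006302). The ER stress genes were Hspa5 (ENSRNOG00000018294), Atf4 (ENSRNOG00000017801) and Ddit3 (ENSRNOG00000006789). Each group held 3 libraries, and reads are given below in the order of replicates A, B, C. The 3D Nichoid is a polymer scaffold with stacked grids into which cells can settle, whereas the 2D Nichoid carries a single layer of that grid. Both were mounted in wells whose plastic hinders attachment of cells, and the culture medium was the same. Neither the labels nor the methods say whether the replicates came from separate animals or cultures, so the tests measure the spread between these libraries only, which may be technical.

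NRF2 is a transcription factor that the protein KEAP1 holds back and marks for degradation. Oxidants and other reactive compounds release it, and it then switches on genes that make glutathione, detoxify quinones and break down heme. ER stress arises when unfolded proteins build up in the endoplasmic reticulum. The cell answers by making more chaperones such as the product of Hspa5, and by a signal through the kinase PERK that favors the translation of Atf4, whose product can in turn switch on Ddit3. Mesenchymal stem cells secrete large amounts of collagen and other matrix proteins, which pass through this compartment.

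Promoter sequences for 5 of the 6 genes, those other than Hmox1, were found by symbol in a RefSeq table of the GRCr8 rat build, which covers 250 bases before to 50 after the transcription start. 4 motifs were searched on both strands of these 300 bases: the antioxidant response element core (TGACNNNGC) that NRF2 is known to bind, the ER stress response element (CCAAT, 9 bases of any kind, then CCACG), the unfolded protein response element core (TGACGTGG) and the C/EBP-ATF response element core (TGATGNAA). The only match was an ER stress response element in Hspa5, from 43 to 25 bases before the start. Of 33469 RefSeq promoters of that length, 0.0657% held this element, 12.1% the antioxidant core, 0.595% the unfolded protein core and 3.98% the C/EBP-ATF core. A match is a description of the letters, and the absence of a match says only that these letters are not in this window. The 250 bases before the start are shown for Hspa5, the gene with the match, and for Nqo1 and Ddit3, which had the largest log2(FC) of each list. They run 5′ to 3′ on the strand of the gene, plus for Hspa5 and Ddit3 and minus for Nqo1, and capitals mark the ER stress response element.
Hspa5: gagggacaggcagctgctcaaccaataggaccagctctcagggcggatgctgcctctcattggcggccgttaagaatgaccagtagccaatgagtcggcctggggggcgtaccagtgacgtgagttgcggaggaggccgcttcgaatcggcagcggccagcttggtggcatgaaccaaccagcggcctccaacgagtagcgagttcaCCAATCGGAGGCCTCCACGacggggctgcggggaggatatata
Nqo1: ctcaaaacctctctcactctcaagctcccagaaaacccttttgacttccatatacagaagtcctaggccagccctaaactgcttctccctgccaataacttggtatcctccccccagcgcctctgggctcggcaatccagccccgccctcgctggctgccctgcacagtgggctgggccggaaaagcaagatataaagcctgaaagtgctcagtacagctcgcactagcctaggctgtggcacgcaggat
Ddit3: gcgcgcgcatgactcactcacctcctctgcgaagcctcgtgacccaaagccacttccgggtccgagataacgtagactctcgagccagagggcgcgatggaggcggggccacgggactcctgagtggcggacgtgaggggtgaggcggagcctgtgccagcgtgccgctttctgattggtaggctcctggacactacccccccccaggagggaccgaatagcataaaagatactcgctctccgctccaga

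All 6 genes were well counted, with between 596 and 79757 reads in a library. Total counts per library ranged from 38353363 to 41860684. Counts were scaled by TMM, a method that corrects each library for the makeup of its RNA, and are given as CPM, counts relative to the scaled total of the library. Since transcript lengths were not used, the CPM of one gene cannot be compared with the CPM of another. Differences are given as log2(FC), the log2 fold change of 3D against 2D Nichoids, from the quasi-likelihood test of edgeR over 13523 genes. In bulk RNA, a change in the share of cells that express a gene and a change in the RNA per cell cannot be told apart. The labelled cell type was not checked against marker genes here, because the files give genes by identifier only.

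Nqo1 and Ddit3 were higher in 3D Nichoids by a log2(FC) of 0.41 each, and the other 4 genes differed by -0.11 to 0.15. 5 were higher and Gclc was lower in 3D Nichoids at an adjusted p of 0.05 or less (edgeR) after TMM scaling, although the sign for Hmox1 turned with library totals alone. In all 6 the TMM-scaled libraries of the groups did not overlap. These counts stand against a wide background, since 37.8% of all tested genes passed that cutoff, 18.9% higher and 18.8% lower, and 46.9% of tested genes had groups that did not overlap. None of the 6 was a DEG by the cutoffs of the study, which add an absolute log2(FC) above 1, while 3.42% of tested genes were. With edgeR, DESeq2 and limma-voom alike, 6 of the genes had an unadjusted p under 0.05, against 45.4%, 44.6% and 45.7% of tested genes, and 0 exceeded an absolute log2(FC) of 1, against 5.71%, 5.73% and 6.74%. Without replicate A, B or C of the 3D Nichoids, 5, 5 and 4 of the genes passed an adjusted p of 0.05 (edgeR), against 31.4%, 30.8% and 30.1% of tested genes. Without replicate A, B or C of the 2D Nichoids, 5, 5 and 6 passed, against 34.4%, 33.7% and 36.4%. The median absolute log2(FC) of the 6 genes was 0.13, against 0.21 over all tested genes, and the signed medians were 0.13 and -0.006. The largest upper bound of a 95% interval was 0.61, for Ddit3, and the lowest lower bound was -0.19, for Gclc, so each interval ended short of a log2(FC) of 1 in either direction.

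**Figure D1:**
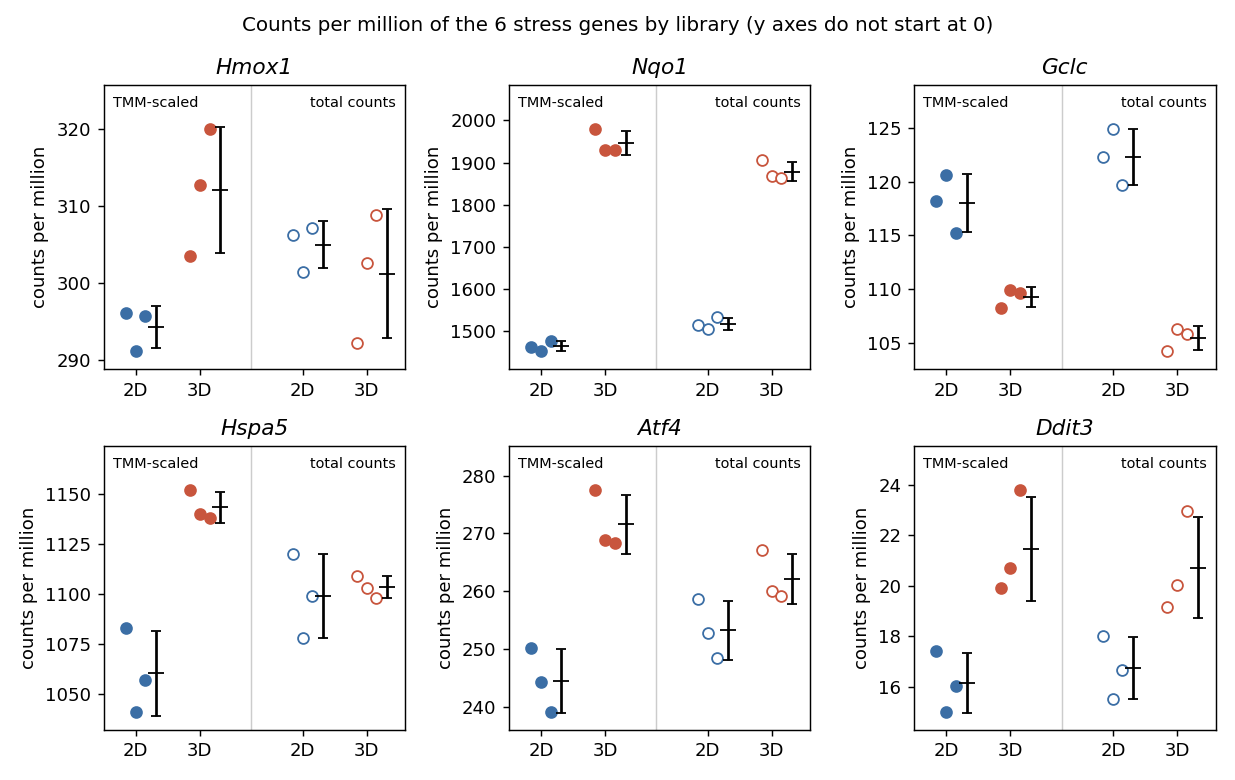
CPM of each gene (y axis, not starting at 0) in the 3 libraries of 2D (blue) and 3D Nichoids (red), with filled points scaled by TMM and open points by total counts, and bars for the mean and SD. Points of a group are replicates A, B and C from left to right. Filled groups do not overlap in any gene, and open groups overlap in Hmox1 and Hspa5.

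Nqo1 encodes NAD(P)H quinone dehydrogenase 1, which reduces quinones without forming oxygen radicals and is a standard readout of NRF2. Cells in 3D Nichoids gave 79757, 72331 and 74838 reads of it, and cells on 2D Nichoids gave 58073, 57668 and 59961. Every 3D Nichoid library lay well above every 2D Nichoid library. On the CPM scale the level was 1946 ± 28.5 in 3D (SD, n = 3) and 1464 ± 11.8 on 2D Nichoids (SD, n = 3). Nqo1 thus rose by 33.0% (95% interval 30.0% to 36.0%), with a log2(FC) of 0.41 (edgeR SE 0.02, adjusted p = 4.73e-24, quasi-likelihood test). In absolute size its log2(FC) was larger than that of 75.3% of tested genes, and that of Ddit3 was larger than 75.2%. This difference had the smallest SE of the 6, and the log2(FC) stayed between 0.40 and 0.42 when each library was left out in turn.

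Hmox1 encodes heme oxygenase 1, which breaks down heme, is switched on by NRF2 and is held down by the repressor BACH1. Its reads numbered 12232, 11722 and 12405 in 3D Nichoids, against 11751, 11560 and 12010 on 2D Nichoids. The raw counts of the groups overlapped, and the groups separated on the TMM scale, at 303.5 to 319.9 CPM in 3D and 291.1 to 296.1 CPM in 2D Nichoids. The log2(FC) was 0.08 (SE 0.03, adjusted p = 0.0116, edgeR) with TMM and -0.02 (SE 0.03, adjusted p = 0.646, edgeR) when counts were scaled by library totals alone, so the direction turned with the scaling. Without replicate C of the 3D Nichoids the log2(FC) was 0.07, with an adjusted p of 0.0997 (edgeR). In the RefSeq table a long noncoding RNA, LOC134483111, overlaps Hmox1. Whether any reads lay on both was not tested, and how such reads were assigned is not given in the sources used here.

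Gclc encodes the catalytic subunit of glutamate-cysteine ligase, the rate-limiting enzyme of glutathione synthesis. It was the only one of the 6 genes that was lower in 3D Nichoids on the TMM scale, with 4361, 4120 and 4251 reads against 4693, 4789 and 4681 on 2D Nichoids. On the TMM scale this was 109.3 ± 0.907 CPM in 3D (SD, n = 3) and 118.0 ± 2.7 CPM on 2D Nichoids (SD, n = 3). The 3D replicates spread by 0.83% (SD over the mean), less than the 1.54% that counting error alone gives. On 2D Nichoids these values were 2.29% and 1.46%. Gclc fell by 7.42% (95% interval -12.5% to -2.01%), with a log2(FC) of -0.11 (edgeR SE 0.04, adjusted p = 0.0272). The call was lost, with adjusted p values from 0.0617 to 0.0976 (edgeR), whenever a library other than replicate C of the 2D Nichoids was left out. Under scaling by library totals the fall was larger, with a log2(FC) of -0.21 (edgeR SE 0.04, adjusted p = 3.38e-05).

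The 3 NRF2 targets differed in direction. Their log2(FC) ran from -0.11 for Gclc through 0.08 for Hmox1 to 0.41 for Nqo1, and the pair at the ends of this range had opposite signs under TMM and under total counts.

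Hspa5 encodes BiP, the main Hsp70-type chaperone of the ER, and its promoter above is the one with the ER stress response element. Reads in 3D Nichoids numbered 46434, 42744 and 44118, and those on 2D Nichoids 42968, 41358 and 42965. In raw reads, 3D replicate B lay below 2D replicates A and C. On the TMM scale the groups parted, at 1143 ± 7.75 CPM in 3D (SD, n = 3) and 1060 ± 20.7 CPM on 2D Nichoids (SD, n = 3). The log2(FC) was 0.11 (SE 0.02, adjusted p = 4.85e-06, edgeR), a rise of 7.82% with a 95% interval from 5.11% to 10.6%. Scaled by library totals, the groups overlapped and the log2(FC) was 0.006 (SE 0.02, adjusted p = 0.814, edgeR).

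Atf4 encodes the transcription factor that carries the integrated stress response, which is controlled largely at the level of translation, a step that read counts do not measure. Its reads were 11181, 10077 and 10409 in 3D Nichoids, compared with 9925, 9696 and 9715 on 2D Nichoids. All 3D Nichoid libraries exceeded all 2D Nichoid libraries, also under both scalings. With library totals they did so narrowly, at 259.1 CPM in 3D replicate C and 258.6 CPM in 2D replicate A. Counting error alone gives 0.973% in 3D and 1.01% in 2D Nichoids, so that separation lies within it. The log2(FC) was 0.15 (SE 0.03, adjusted p = 3.75e-05, edgeR) with TMM, a rise of 11.1% (95% interval 6.71% to 15.7%). With library totals it was 0.05 (SE 0.03, adjusted p = 0.165, edgeR) and no longer passed.

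Ddit3 encodes CHOP, a transcription factor linked to cell death under prolonged ER stress. It had the fewest reads of the 6, with 802, 776 and 923 in 3D Nichoids against 691, 596 and 652 on 2D Nichoids. The groups did not overlap, and replicate C stood highest among the 3D Nichoid libraries. The level was 21.47 ± 2.06 CPM in 3D (SD, n = 3) and 16.16 ± 1.2 CPM on 2D Nichoids (SD, n = 3). Ddit3 rose by 32.9%, with a log2(FC) of 0.41 (edgeR SE 0.10, adjusted p = 0.000974) and a wide 95% interval from 15.5% to 52.8%. Replicates spread by 9.60% (SD over the mean) in 3D and 7.46% in 2D Nichoids, while counting error alone gives 3.46% and 3.93%. Leaving out each library moved the log2(FC) between 0.33 and 0.47, and the highest adjusted p was 0.0281 (edgeR). In the RefSeq table Mars1 and LOC134479709 overlap Ddit3, and whether any reads were shared with them was not tested.

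The 3 ER stress genes had the same sign under TMM, with log2(FC) of 0.11 for Hspa5, 0.15 for Atf4 and 0.41 for Ddit3. With library totals the values were 0.006, 0.05 and 0.31, of which only that of Ddit3 passed (adjusted p = 0.0112, edgeR).

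**Figure D2:**
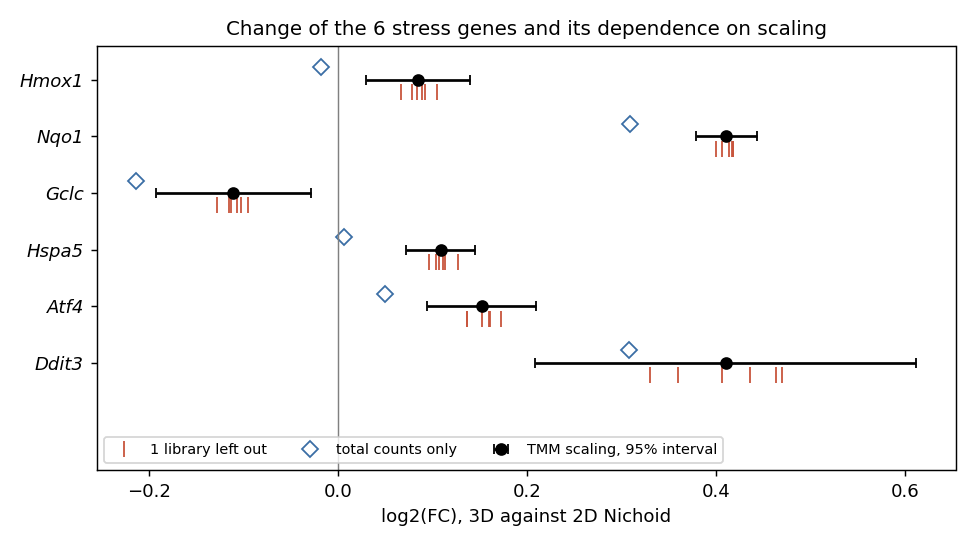
log2(FC) of each gene, 3D against 2D Nichoids (x axis), with TMM scaling and its 95% interval (black), with total counts only (blue diamonds) and with 1 library left out at a time (red ticks). Nqo1 and Ddit3 lie at 0.41 with intervals of very different width, Gclc lies below 0, and the blue diamonds of Hmox1 and Hspa5 lie at -0.02 and 0.006.

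The choice of scaling moved each log2(FC) by about as much as the smaller changes themselves. The TMM factors were 0.963 to 0.967 in 3D and 1.03 to 1.04 in 2D Nichoids, and the most counted gene took 5.69% to 5.73% of the reads of 3D Nichoid libraries against 4.21% to 4.25% in 2D. With library totals only, the median gene among those tested moved from a log2(FC) of -0.006 to -0.108. Since the TMM factors hardly varied within a group, a change of scaling moves every gene by nearly the same amount. Relative to the median gene, the log2(FC) was therefore bound to be the same under both scalings, which lends no call further support. To 2 decimals, it was 0.09 for Hmox1, 0.42 for Nqo1, -0.11 for Gclc, 0.11 for Hspa5, 0.16 for Atf4 and 0.42 for Ddit3. By library totals, 3 of the 6 genes reached an adjusted p of 0.05 or less (edgeR), Nqo1 and Ddit3 higher and Gclc lower, against 12.1% of all tested genes higher and 30.8% lower. In 4 of the 6, the groups did not overlap, narrowly so in Atf4, against 50.6% of tested genes. Nqo1, Ddit3 and Gclc thus kept their direction and their call under both scalings, while the calls of Hmox1, Hspa5 and Atf4 were made only when a composition factor was used.

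**Figure D3:**
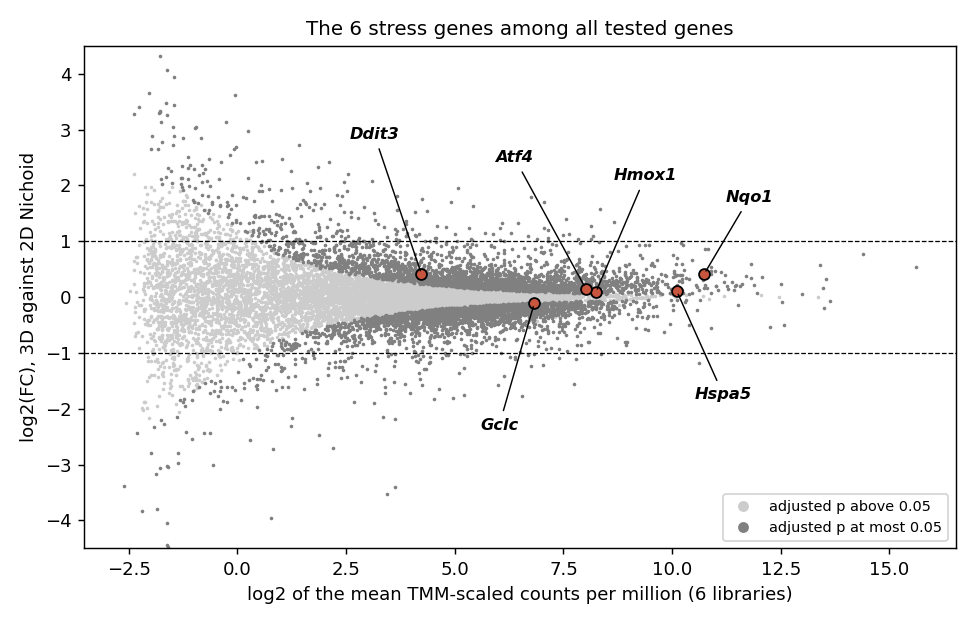
log2(FC), 3D against 2D Nichoids (y axis), against the log2 of the mean TMM-scaled CPM (x axis) for all tested genes, with the 6 stress genes in red, genes at an adjusted p of 0.05 or less in dark grey and 5 genes outside the y range not drawn. The dashed lines mark a log2(FC) of 1 and -1, and all 6 genes lie between them.

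The ratio of a pair of these genes within a library does not depend on how libraries are scaled, so all 15 pairs were compared. Pairs that share a gene are not independent of each other. In 12 pairs the ratio did not overlap between the groups, against 42.5% of all pairs of tested genes. The exact permutation test cannot give a p under 0.1 with 3 libraries against 3, and these 12 pairs reached it (two-sided, 0.125 after adjustment over the 15 pairs). Groups that do not overlap always reach it, so these p values only restate that count. The differences below also follow from the log2(FC) of the genes in each pair and are not separate evidence. The largest differences were those of Gclc against the genes with the largest increase. The log2 ratio of Nqo1 to Gclc was 4.16 ± 0.03 in 3D (SD, n = 3) and 3.63 ± 0.05 on 2D Nichoids (SD, n = 3), a difference of 0.52 that stayed between 0.50 and 0.55 with each library left out. The log2 ratio of Gclc to Ddit3 differed by -0.52, from 2.87 in 2D to 2.35 in 3D Nichoids.

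Within the ER stress genes, the ratios of both others to Ddit3 were lower in every 3D Nichoid library than in any 2D Nichoid library. The log2 ratio of Hspa5 to Ddit3 was 5.74 ± 0.14 in 3D (SD, n = 3) and 6.04 ± 0.08 on 2D Nichoids (SD, n = 3), and that of Atf4 to Ddit3 was 3.67 ± 0.16 and 3.92 ± 0.09. The ratio of Hspa5 to Atf4 differed by only -0.04. Among the NRF2 targets, the log2 ratio of Hmox1 to Nqo1 differed by -0.33 between 3D and 2D Nichoids and that of Hmox1 to Gclc by 0.20. 3 pairs overlapped between the groups, namely Nqo1 with Ddit3 (difference 0.002), Hmox1 with Hspa5 (-0.02) and Hmox1 with Atf4 (-0.07), and their exact permutation p values were 1.0, 0.7 and 0.2. Leaving out libraries took the difference of Nqo1 with Ddit3 from -0.06 up to 0.09, which limits how closely their log2(FC) can be called equal. That of Hmox1 with Atf4 ran from -0.094 to -0.032, the latter without replicate A of the 3D Nichoids, and that of Hmox1 with Hspa5 was 0.001 without the same library.

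**Figure D4:**
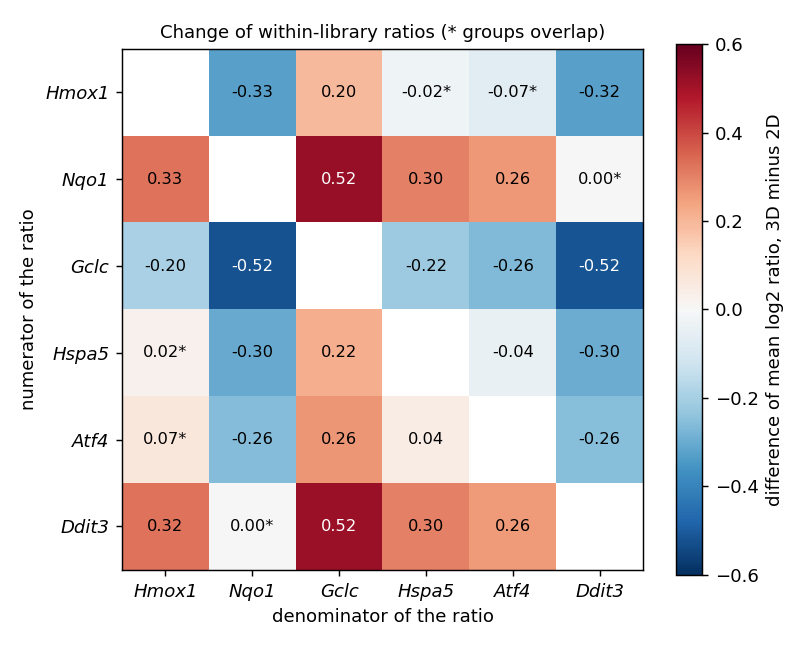
Difference between 3D and 2D Nichoids in the mean within-library log2 ratio, for each gene as numerator (y axis) over each other gene as denominator (x axis), from blue (lower in 3D) to red (higher in 3D). Nqo1 and Ddit3 are red against every other gene and near 0 against each other, Gclc is blue throughout, and asterisks mark the 3 pairs that overlap between the groups.

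The genes whose pattern over the 6 libraries came closest were sought for the first gene of each list, among 13517 other tested genes, by Pearson correlation of log2 CPM. The correlation is a description, since libraries and scaling are shared. As the highest of 13517 values over only 6 libraries, it is also bound to be high through the selection alone. For Hmox1 the closest gene was ENSRNOG00000007089 (r = 0.995 over 6 libraries), with 7079, 6720 and 7134 reads in 3D Nichoids against 6833, 6758 and 7013 on 2D Nichoids. Its log2(FC) was 0.07 (SE 0.03, adjusted p = 0.124, edgeR). For Hspa5 it was ENSRNOG00000036913 (r = 0.999 over 6 libraries), with 4786, 4321 and 4512 reads against 4100, 3759 and 3997, a log2(FC) of 0.24 (edgeR SE 0.04, adjusted p = 1.22e-05).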

How the data were processed

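Single-end reads of 3 libraries from 3D and 3 from 2D Nichoids were aligned with STAR 2.7.0a and counted with HTSeq by the authors, and the deposited values are raw read counts per Ensembl gene. The submitters' processing notes name HTSeq 0.12.4 and the Rnor_6.0 genome, whereas the paper names later releases of both, so no coordinates are given. Handling of strand, multiple alignments and PCR copies is not given in the sources used here, and counting errors cover counting only.

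From these counts, edgeR 4.0.16 under R 4.3.3 gave the main test (filterByExpr, TMM, robust quasi-likelihood, no covariates, Benjamini-Hochberg over 13523 genes). SE is the absolute log2(FC) over the root of F, and 95% intervals use the moderated t quantile. DESeq2 1.42.0 and limma 3.58.1 were alternatives. Pair ratios were tested in Python 3.11.15, and their share over all gene pairs used counts plus 0.5. Replicates differed by 3.75 to 7.74 times the variance that sampling of reads gives, so no pair agreed within sampling noise and each library was counted as 1 sample. Separate preparations of one culture could also differ by this much. The script was tested on simulated data, with the changed genes drawn at random from all tested genes. It recovered 52.1%, 60%, 83.7% and 100% of genes changed 1.25-fold, 1.5-fold, 2-fold and 4-fold, and it called 8 unchanged genes.

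Symbols of the 6 genes came with their identifiers, and the genes and lists were chosen with earlier results of these data known. Named genes were these 6 and the closest pattern for Hmox1 and Hspa5. As the gene table matched 0 of 32883 identifiers, lists of further stress genes and cell type markers were not analysed here.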

Additional observations from a re-analysis of the deposited data

How the results depend on the processing

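All 6 genes passed the adjusted p cutoff with DESeq2, limma-voom and RLE factors. They also passed with no filter on low counts, at least 10 counts in every library and the replicate block. In these settings, 14.2% to 20.9% of all tested genes passed as higher and 13.6% to 20.3% as lower. With total counts only, 3 of the 6 genes passed, against 12.1% of tested genes higher and 30.8% lower. There, the log2(FC) was -0.018 for Hmox1, which reversed, 0.006 for Hspa5 and 0.05 for Atf4, which no longer passed. The scaling itself moved the median of all tested genes by -0.102, and it turned the balance of all calls from 2560 higher and 2549 lower to 1638 and 4161. With each library left out, 4 to 6 of the genes passed, against 30.1% to 36.4% of all tested genes. The log2(FC) then ran from 0.067 to 0.105 for Hmox1 and from -0.128 to -0.095 for Gclc, whose calls were lost in 1 and 5 of the 6 fits, while those of Nqo1, Hspa5, Atf4 and Ddit3 held in all 6. In the same fits the log2 ratio of Hmox1 to Hspa5 ran from -0.046 to 0.001, that of Hmox1 to Atf4 from -0.094 to -0.032, and that of Nqo1 to Ddit3 from -0.062 to 0.085. None of these settings gave a DEG among the 6 genes, against 382 to 555 DEGs among the 12464 to 18247 tested genes. With the letter as a replicate block, 5132 of all tested genes passed, against 5109 without it, and no call among the 6 changed. No shared deviations of same-letter libraries were seen (correlations of 0.004, -0.002 and 0.011 for A, B and C, with 2 of 6 libraries closest to their own letter). With 3 libraries per group, a weak pairing could be missed.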
